A study of Caenorhabditis elegans with 2 samples.

Results

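Divergent promoter peaks are sites of OEF-1 recovery whose summit lay between 2 protein-coding genes that point away from each other. They were chosen by the peak signal of the list that the authors made from both replicates together, so that signal is a description here and no test is made on it. From the 3000 nuclear candidates with the highest signal, a summit was kept if it lay outside coding genes and upstream of the annotated 5' ends of a plus-strand gene and a minus-strand gene. Both 5' ends had to be within 1000 bp and at least 1 within 500 bp, and summits within 250 bp of a tRNA, snoRNA or snRNA gene were left out. The rule kept 338 of the 3000 candidates. They lay in 325 gene pairs and had 649 different flanking genes. For comparison, 532 of the same 3000 candidates were upstream of a single coding gene, and 545 lay beside a small RNA gene.

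The study applied chromatin immunoprecipitation and sequencing (ChIP-seq) to whole Caenorhabditis elegans hermaphrodites with an antibody against GFP. There was 1 group of 2 samples, biological replicates 3 and 4, both L4 larvae of strain OP383 collected 52 h after release from starvation at the L1 stage that follows bleaching. The strain carries unc-119(tm4063) III and the transgene insertion wgIs383, which adds oef-1 (F49E8.2) with a C-terminal GFP-FLAG tag. Both replicates shared this genotype, 1 transgenic line and a control file, no untagged strain was used, and cell types cannot be told apart in whole animals.

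A divergent promoter is a stretch of DNA from which 2 genes are read in opposite directions, so that a single open chromatin region can serve both. In the compact genome of C. elegans such head-to-head pairs are common, and a ChIP peak between them cannot be assigned to either gene by position alone. OEF-1 is a nuclear protein of the C. elegans germline, the tissue that forms oocytes and sperm and that expands in L4 larvae. Many worm transcripts receive a spliced leader, and their annotated 5' end is then the joining site, downstream of where transcription starts.

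The DNA under the strongest of these summits is shown so that the letters can be read beside the values. The windows run 50 bp to each side of the summit, 101 bp in all, on the plus strand of WBcel235 (ce11), read from the RefSeq copy of that assembly. In each line the plus-strand gene is named before the minus-strand gene. Capitals mark matches on either strand to 9 short sequences: the GC-rich GGCGCA with ACGCGC with GCGCCA, the E2F-type GCGGGAA with GCGCGAA, the GC box GGGCGG, and the words ACCGTA with GAGACC with ATACACT. A match is a description of the letters and not a binding site.
set-16 and drr-2, chrIII:13643690-13643790: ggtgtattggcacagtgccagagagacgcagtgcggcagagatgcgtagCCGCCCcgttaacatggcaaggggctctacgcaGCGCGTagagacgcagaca
Y17G9B.5 and rpl-20, chrIV:4750025-4750125: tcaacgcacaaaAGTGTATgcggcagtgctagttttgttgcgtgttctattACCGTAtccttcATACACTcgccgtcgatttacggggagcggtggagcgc
hsp-60 and Y22D7AL.10, chrIII:1619083-1619183: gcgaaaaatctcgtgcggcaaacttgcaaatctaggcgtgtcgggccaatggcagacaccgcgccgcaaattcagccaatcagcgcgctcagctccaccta
K11H12.8 and rpl-15, chrIV:654863-654963: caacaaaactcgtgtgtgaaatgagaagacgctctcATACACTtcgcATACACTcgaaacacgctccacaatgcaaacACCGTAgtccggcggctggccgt
wip-1 and larp-1, chrIII:5018234-5018334: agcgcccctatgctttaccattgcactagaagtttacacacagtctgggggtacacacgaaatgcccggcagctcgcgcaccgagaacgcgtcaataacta
klp-18 and cogc-2, chrIV:7039855-7039955: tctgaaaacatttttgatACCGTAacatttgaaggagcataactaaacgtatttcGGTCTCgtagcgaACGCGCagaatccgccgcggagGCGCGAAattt
tasp-1 and K01G5.10, chrIII:10759189-10759289: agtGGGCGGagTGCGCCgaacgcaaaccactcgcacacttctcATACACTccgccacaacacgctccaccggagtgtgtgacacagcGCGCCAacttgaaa
rga-3 and K09H11.9, chrV:5717359-5717459: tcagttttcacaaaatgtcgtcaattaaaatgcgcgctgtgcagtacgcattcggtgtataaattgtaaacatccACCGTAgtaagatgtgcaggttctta
Y55F3AR.2 and cct-8, chrIV:1094321-1094421: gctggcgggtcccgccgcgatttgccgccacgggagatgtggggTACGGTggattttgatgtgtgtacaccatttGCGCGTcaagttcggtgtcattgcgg
pid-5 and coh-4, chrV:4175774-4175874: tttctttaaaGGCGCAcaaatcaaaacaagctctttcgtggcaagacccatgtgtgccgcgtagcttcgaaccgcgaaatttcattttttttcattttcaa

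Of these 10 windows, those of hsp-60 and wip-1 hold none of the 9 sequences. The windows of klp-18 and of tasp-1 hold 4 kinds each, with GCGCGAA among those beside klp-18 and GGGCGG among those beside tasp-1. The windows beside rpl-20 and rpl-15, genes for proteins of the large ribosomal subunit, share ACCGTA and ATACACT, and ATACACT occurs at 2 places in each, counting both strands. A further 6 windows are shown because they carry 2 or more kinds of match, lie outside annotated exons of coding genes and had the highest signal among the peaks then eligible for printing.
H05C05.1 and H05C05.4, chrIII:2946779-2946879: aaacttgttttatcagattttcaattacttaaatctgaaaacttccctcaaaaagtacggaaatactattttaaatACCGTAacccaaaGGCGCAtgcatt
rib-2 and tbb-1, chrIII:10742641-10742741: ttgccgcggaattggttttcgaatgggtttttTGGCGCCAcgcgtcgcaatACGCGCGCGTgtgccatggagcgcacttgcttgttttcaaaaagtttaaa
top-2 and npp-3, chrII:11874811-11874911: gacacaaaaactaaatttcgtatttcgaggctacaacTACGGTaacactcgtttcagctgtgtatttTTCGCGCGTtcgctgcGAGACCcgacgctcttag
hex-3 and fbxb-85, chrIII:10848974-10849074: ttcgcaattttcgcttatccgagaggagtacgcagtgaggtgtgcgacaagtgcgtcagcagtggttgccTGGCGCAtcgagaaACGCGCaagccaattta
rps-1 and ifet-1, chrIII:4475623-4475723: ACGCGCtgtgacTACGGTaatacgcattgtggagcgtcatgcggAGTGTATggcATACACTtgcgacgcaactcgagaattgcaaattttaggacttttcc
coh-3 and bmk-1, chrV:14457209-14457309: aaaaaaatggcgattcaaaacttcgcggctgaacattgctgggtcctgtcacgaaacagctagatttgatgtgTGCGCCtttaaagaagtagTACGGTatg

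In the window of rib-2 and tbb-1, a beta-tubulin gene, the capitals merge where matches overlap. The same holds for top-2 and npp-3, genes for topoisomerase II and a nucleoporin, where GCGCGAA and ACGCGC share letters. The window of rps-1 and ifet-1 also holds ACCGTA and ATACACT. The gene rps-1 codes for a protein of the small ribosomal subunit, and ifet-1 for a germline regulator of translation. ATACACT was picked from windows beside ribosomal protein genes, so its presence in such windows is no independent finding.

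The strongest divergent peak lay between set-16, which encodes a histone methyltransferase of the MLL type, and drr-2, on chromosome III. Its signal was 481 in the pooled list, rank 4 of all nuclear candidates, with a summit 176 bp from set-16 and 170 bp from drr-2. It had signal 385 and rank 4 in replicate 3, and signal 103 and rank 11 in replicate 4. The scale of the signal is not stated and each list has its own, so ranks and not signals are set side by side between replicates.

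The next was between the histone genes his-68 and his-67 on chromosome I, with a pooled signal of 458, rank 5 in replicate 3 and rank 6 in replicate 4. The peak between Y17G9B.5 and rpl-20 on chromosome IV had a pooled signal of 421 and was rank 9 in replicate 3 and rank 3 in replicate 4. These peaks stood in the top 11 places of both replicate lists. The peak between hsp-60 and Y22D7AL.10 had a pooled signal of 378, rank 12 in replicate 3 and rank 12 in replicate 4. Here both genes code for mitochondrial heat shock proteins: hsp-60 is the chaperonin, and RefSeq annotates Y22D7AL.10 as a small mitochondrial heat shock protein. The peak between K11H12.8 and rpl-15 had a pooled signal of 365, rank 11 in replicate 3 and rank 34 in replicate 4.

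Further down, the peak of wip-1, a homolog of the WASP-interacting protein, and larp-1, which codes for a La-related RNA-binding protein, had a pooled signal of 296. It was rank 30 in replicate 3 and rank 53 in replicate 4. The peak of klp-18, a kinesin of the oocyte meiotic spindle, and cogc-2, a Golgi complex subunit, had 291, with ranks 33 in replicate 3 and 42 in replicate 4. The peak of tasp-1 and K01G5.10 followed with 266, ranks 44 and 45 in replicates 3 and 4. Then came rga-3, which encodes a GTPase-activating protein, with K09H11.9 at 264 and ranks 42 and 98 in replicates 3 and 4. The peak of Y55F3AR.2 and the CCT chaperonin gene cct-8 had 262, with ranks 57 and 49 in replicates 3 and 4. The last 2 of the 12 strongest were wbp-4 with F56G4.6 at 245, and pid-5, a piRNA pathway gene, with the meiotic cohesin gene coh-4 at 234. For wbp-4 the ranks were 102 and 21 in replicates 3 and 4, and for pid-5 they were 77 and 90. All 12 were in the authors' optimal list, described next.

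Over all 338 peaks the pooled signal ran from 45.1 to 481 with a median of 75.8, beside a median of 68.6 over all 3000 candidates and 71.6 over the single-gene promoter peaks. Among the 100 strongest nuclear candidates, 15 were divergent promoter peaks and 20 were single-gene promoter peaks. The authors' optimal list, made with the irreproducible discovery rate (IDR) from how alike the replicates rank their peaks, held 177 of the 338 (52.4%, exact 95% interval 46.9 to 57.8), beside 43.9% of all 3000 and 47% of single-gene promoter peaks. Since that list consists of the pooled candidates with the highest signal, this count restates where the divergent peaks stand in the ranking.

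In replicate 3, 304 of the 338 (89.9%, 86.2 to 92.9) had a summit of that replicate's own top 3000 within 200 bp, beside 85.0% of all 3000 candidates. In replicate 4 this was true of 241 (71.3%, 66.2 to 76.1), beside 63.6%. Both replicates had such a summit at 213 (63.0%, 57.6 to 68.2), beside 53.0% of all 3000 and 56.8% of single-gene promoter peaks. The pooled list was made from these same 2 samples, so the counts describe recovery and are no independent repeat. The intervals cover counting error only, and neighbouring peaks are not replicates.

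**Figure D1:**
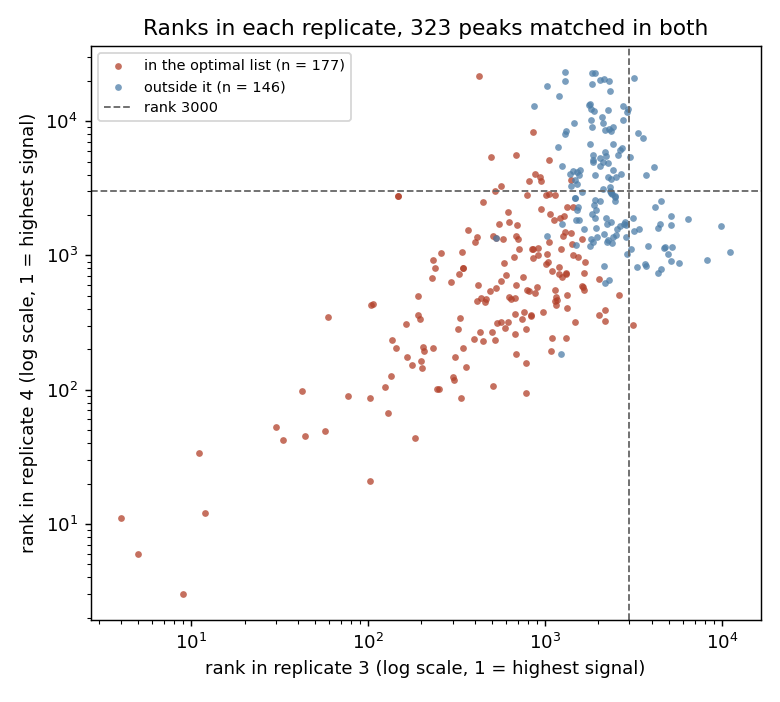
Rank of each divergent promoter peak in replicate 3 (horizontal, log scale) and replicate 4 (vertical, log scale), for the 323 peaks with a candidate within 200 bp in both lists, red for the 177 in the optimal list and blue for the other 146. The strongest peaks have low ranks in both, the red points reach rank 3128 in replicate 3 and rank 21802 in replicate 4, and the blue points reach rank 11115 in replicate 3 and rank 23193 in replicate 4.

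Of the 177 peaks of the optimal list, 1 was past rank 3000 in replicate 3 and 12 were in replicate 4, and of the other 146 peaks matched in both replicates 32 were in replicate 3 and 71 in replicate 4. The plot of replicate ranks has some peaks of the optimal list far from the diagonal: the peak between let-99 and hsb-1 was rank 425 in replicate 3 and rank 21802 in replicate 4. With the whole candidate lists, which hold weak peaks and background on purpose, 337 of 338 (99.7%) had a summit in replicate 3 and 324 (95.9%) in replicate 4. Over all 3000 candidates these shares were 99.0% and 92.2%, and over single-gene promoter peaks 99.4% and 92.3%. For the divergent peaks the median distance to the matched summit was 3.00 bp in replicate 3 and 23.5 bp in replicate 4. The peak without a candidate in replicate 3 lay between cel-1, the mRNA capping enzyme gene, and the nucleoporin gene npp-14, with rank 974 in replicate 4. The strongest of the 14 without one in replicate 4 was between C14B1.2 and pdi-1, with rank 630 in replicate 3, followed by idhg-1 with mlcd-1 (rank 1079) and ZK973.1 with ZK973.11 (rank 1328). The peak between gld-3, which encodes a germline regulator of RNA, and T07F8.4 was also among them, with rank 953 in replicate 3. These 5 peaks were outside the optimal list.

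The weakest divergent peak inside the top 3000 lay between F53C11.5 and F53C11.4 on chromosome V, with a signal of 45.14 at rank 2994. The nearest one outside, at rank 3002, lay between frpr-14 and K07E8.7 with a signal of 45.05. At the edge of the distance rule, the peak of mrpl-40 and attf-3 was kept with its farther 5' end at 998 bp, and that of usp-39 and nep-18, with its farther end at 1012 bp, was not. A further 137 summits with the same layout ranked from 3001 to 6000, and 13 in the top 3000 were left out because a small RNA gene was near.

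The summits lay more often toward the middle of the interval between both 5' ends than close to either of them. The distance to the nearer 5' end had a median of 158 bp (2 to 490), and that to the farther had a median of 330 bp (45 to 998). In single-gene promoter peaks the median distance to the 5' end was 208 bp. The nearer distance took a median of 32.0% of the interval. When the interval was cut into 3 equal stretches, 153 summits (45.3%, 39.9 to 50.7) were in the middle one, against 33.3% for an even spread. In 34 (10.1%, 7.07 to 13.8) the nearer distance was under 10% of the interval, against 20% for an even spread. Position was used by the rule, so these figures are a description and no test. In intervals wider than 1000 bp the distance limits bar summits close to either end and summits more than 500 bp from both ends. Of the 321 adjacent pairs that held a peak, 22 were spaced 1000 to 1500 bp. In 254 peaks (75.1%, 70.2 to 79.7) both 5' ends were within 500 bp of the summit, and in 101 (29.9%, 25 to 35.1) both were within 250 bp. The plus-strand gene was nearer in 178 peaks and the minus-strand gene in 159, with 1 tie.

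**Figure D2:**
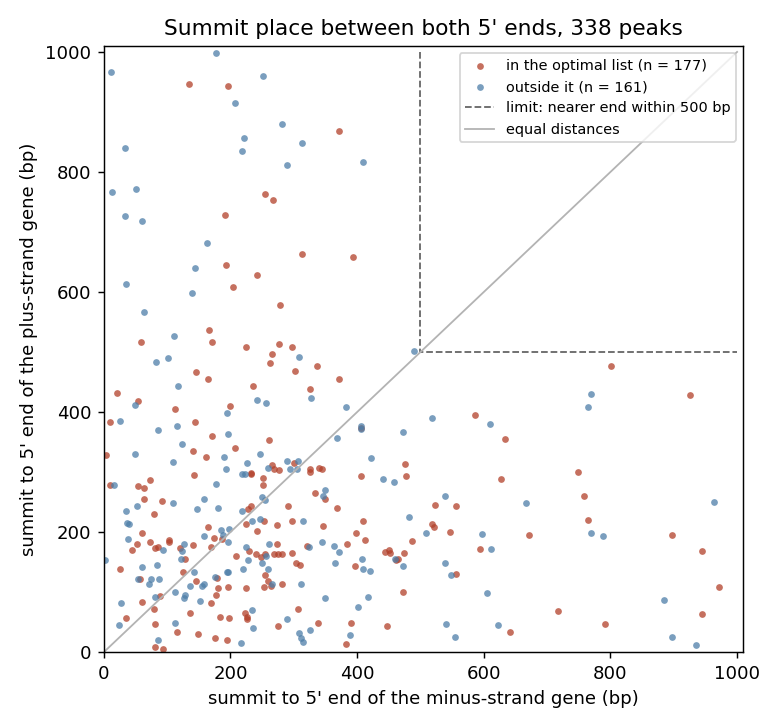
Distance from each of 338 summits to the 5' end of the minus-strand gene (horizontal, bp) and of the plus-strand gene (vertical, bp), red for the 177 peaks in the optimal list and blue for the others. The dashed corner marks the rule that 1 end is within 500 bp, and points fall on both sides of the line of equal distances, 178 nearer the plus-strand gene and 159 nearer the minus-strand gene.

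The extremes show how different these intervals are. The shortest, between C05C10.5 and C05C10.7, was 69 bp, and the next, between C01G10.9 and C01G10.10, was 89 bp. The widest was the 1353 bp between atad-3, a mitochondrial ATPase gene, and nrde-2, a nuclear RNA interference gene, where the summit lay 428 bp from atad-3 and 925 bp from nrde-2. The rga-3 interval, with 1277 bp, was the next. The most equal distances were those of bmy-1 and F09E5.11, at 254 bp on both sides, and of gld-3 and T07F8.4, at 306 and 305 bp. The most unequal were those of nol-58 and zip-4, with the summit 3 bp from zip-4 and 329 bp from nol-58, and of lgc-51 and W03F11.4, at 967 and 11 bp.

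In 312 pairs there was 1 peak and in 13 there were 2, with summits 199 to 838 bp apart and a median gap of 203 bp. Peaks within 1 bp of the median width of 440 bp made up 277 of the 338, so summits about 200 bp apart belong to overlapping intervals. Between ctnb-1 and the kinesin gene klp-15 the pooled signals of the 2 summits were 157 and 77.1. Between jmjd-1.2, a histone demethylase gene, and F29B9.11 they were 129 and 91.8. The summits were farther apart between atx-2, which encodes an ataxin-type RNA-binding protein, and ecps-1, at 47 and 645 bp from atx-2, with signals of 129 and 127. Between F01G4.4 and skih-2 they were 123 and 57.7. Both ctnb-1 summits were matched to the same candidates, rank 148 in replicate 3 and rank 2773 in replicate 4. In replicate 4 both jmjd-1.2 summits shared the candidate of rank 597, and both F01G4.4 summits that of rank 185. The counts of recovery in the replicates take each such summit separately. In 4 peaks another coding gene stood between the 5' ends, so these were not adjacent pairs.

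Head-to-head coding pairs were counted over the whole genome to see which of them held a peak. There were 2186 adjacent divergent pairs with 5' ends at most 1500 bp apart, the widest spacing the rule allows, and 321 of them (14.7%) held a divergent promoter peak. The share was 8.57% (21 of 245, 5.38 to 12.8) for spacings under 200 bp and 20% (93 of 465, 16.5 to 23.9) at 200 to 399 bp. It was 21.4% at 400 to 599 bp and 20.9% at 600 to 799 bp. It was 10.7% at 800 to 999 bp and 4.70% from 1000 to 1500 bp, where the distance limits leave less room for a summit. The median spacing was 520 bp over the peaks (quartiles 344 and 732) and 594 bp over all divergent pairs (324 and 937).

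By chromosome, 78 of 330 divergent pairs on III held a peak (23.6%, 19.2 to 28.6), 74 of 378 on I (19.6%, 15.7 to 23.9) and 70 of 386 on IV (18.1%, 14.4 to 22.3). The share was lower on II, with 51 of 400 (12.8%, 9.64 to 16.4), and on V, with 48 of 567 (8.47%, 6.31 to 11.1). On X none of 125 pairs held one, which by the exact 95% interval allows a share of up to 2.91%, while 185 of the 3000 candidates and 3 single-gene promoter peaks lay on X. On the autosomes together the share was 321 of 2061 (15.6%, 14 to 17.2). Pairs on X were more often widely spaced. Of the 468 pairs with 5' ends 1000 to 1500 bp apart, where 4.70% held a peak, 422 were autosomal, beside 2061 of all 2186 pairs. Spacing was not matched between X and the autosomes. The intervals of III and V do not overlap, nor do those of X and any autosome. They cover counting error only, neighbouring pairs are not replicates, and no difference between chromosomes was tested.

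The list of replicate 3 taken alone also had 0 divergent promoter peaks on X. There was 1 peak on X in the list of replicate 4 taken alone and 1 when summits beside small RNA genes were kept.

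**Figure D3:**
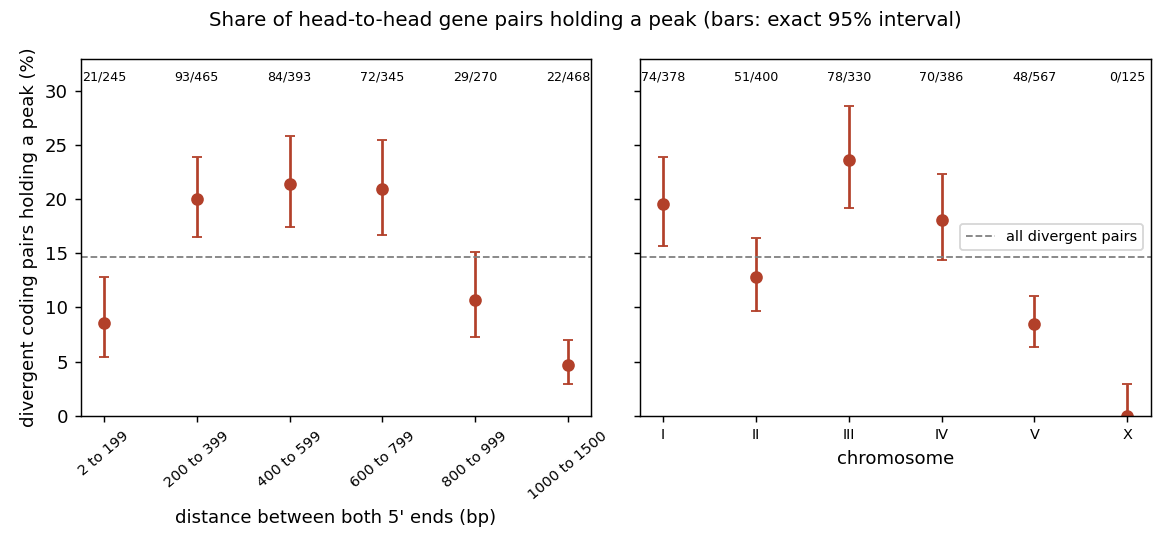
Share of the 2186 divergent coding pairs that held a peak (vertical, percent), by distance between both 5' ends on the left and by chromosome on the right, with exact 95% intervals and the counts printed above. The dashed line is 14.7%, the share over all pairs, and chromosome X stands at 0 of 125.

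Genes of cell growth and of the germline stood on either side of many of these peaks. The flanking genes were sorted into 22 lists by the pattern of their symbol, so a list can hold genes of other functions, and some genes are on more than 1. They were counted against the genes of all divergent pairs, of which 14.7% flank a peak, and beside all 19973 coding genes, of which 3.25% do. Of the 649 flanking genes 224 were on a list (34.5%, 30.9 to 38.3), against 17.5% of genes in all divergent pairs. Both genes were on lists in 44 of 325 pairs (13.5%, 10 to 17.7), against 6.18% of all divergent pairs, and in 145 pairs neither gene was. A peak between 2 genes counts for both, so counts for 1 list include partners that belong elsewhere. The shares are descriptions with no test, and the lists were put together with earlier results of these data known.

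**Figure D4:**
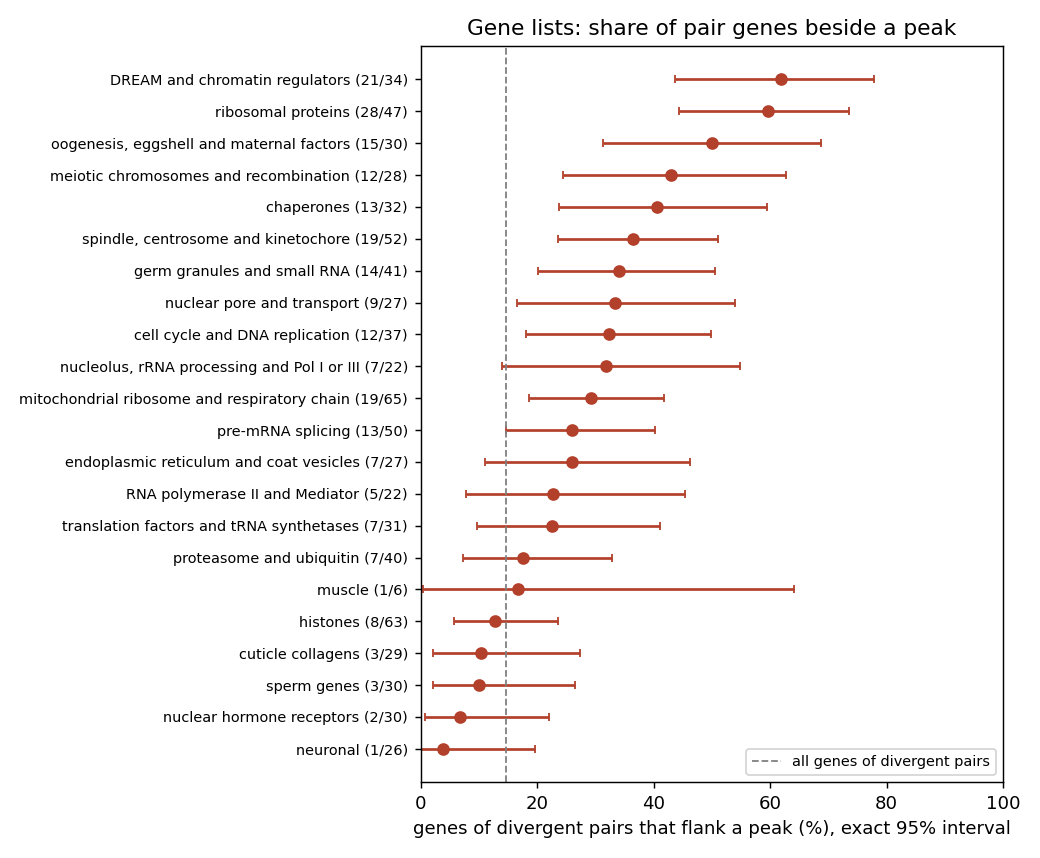
Share of the genes in divergent pairs that flanked a peak (horizontal, percent, exact 95% interval) for each of 22 gene lists, with counts in brackets. The dashed line is 14.7%, the share of all genes in divergent pairs. Chromatin regulators (21 of 34) and ribosomal proteins (28 of 47) stand highest, and neuronal genes (1 of 26) lowest.

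Ribosomal protein genes, which code for the structural proteins of cytosolic ribosomes, flanked a peak in 28 of 47 cases (59.6%, 44.3 to 73.6). The median distance from the summit to the ribosomal protein gene was 294 bp, and it was the nearer gene in 11 of the 28. Besides rpl-20 and rpl-15, the strongest were rps-19 with hsr-9 at a pooled signal of 225 and rps-1 with ifet-1 at 178. For rps-19 the ranks were 59 in replicate 3 and 347 in replicate 4, and for rps-1 they were 245 and 102. In 3 pairs both genes were of this list: rpl-24.1 with rps-10 (signal 127), rpl-36 with rps-14 (51.8) and rps-30 with rpl-39 (48.2). Of the 28 genes, 16 had their peak in the optimal list and 17 had it near the top 3000 of both replicates.

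Some partners of ribosomal protein genes were on other lists. The DREAM gene lin-54, whose product binds DNA, lay 383 bp from a summit that was 10 bp from rpl-12, with a pooled signal of 165 and ranks of 196 in replicate 3 and 334 in replicate 4. The SET-domain gene set-21 was 173 bp from a summit that lay 81 bp from rpl-7A, with a signal of 163. The pair ekl-4 and rps-20 had 153.

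In the list of DREAM and chromatin regulators, which turn genes off or on through nucleosomes and their marks, 21 of 34 pair genes flanked a peak (61.8%, 43.6 to 77.8). After set-16, lin-54 and set-21 came lin-53, which codes for a histone-binding protein of several chromatin complexes, beside nra-2 with a pooled signal of 159 and ranks of 333 in replicate 3 and 86 in replicate 4. The retinoblastoma-like gene lin-35 stood beside vps-51 with 116, and the E2F-like gene efl-1 beside fbxa-90 with 78.7. The chromodomain gene mrg-1 shared a peak of 117 with the signal peptidase gene spcs-2. The enhancer of Polycomb homolog epc-1 shared one of 117 with Y111B2A.12. Of the 21 genes 9 were the nearer of the pair, and 12 had their peak in the optimal list.

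Oogenesis and maternal genes flanked a peak in 15 of 30 cases (50%, 31.3 to 68.7), and meiotic genes in 12 of 28 (42.9%, 24.5 to 62.8). The strongest of the maternal genes was pos-1, for an RNA-binding protein of the early embryo, beside vha-18 with a pooled signal of 185. Its ranks were 137 in replicate 3 and 233 in replicate 4. The related mex-1 had 147, and mex-5 had 83.8 in a peak shared with rec-8, the gene of a meiotic cohesin. That peak was rank 2016 in replicate 3 and rank 360 in replicate 4. Among meiotic genes, coh-4 (234) was followed by coh-3, another cohesin gene, which shared a peak of 175 with the kinesin gene bmk-1. The synaptonemal complex gene syp-6 shared one of 132 with mei-2, which encodes a subunit of katanin. Other meiotic genes were chk-2, a kinase gene, at 96.8, and syp-3, of the synaptonemal complex, at 78.9. The window at syp-3 held a 20-letter word with 169 copies in the nuclear genome.

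Genes of germ granules and small RNA pathways flanked a peak in 14 of 41 cases (34.1%, 20.1 to 50.6). After pid-5 and ekl-4 the strongest were hrde-1, for a nuclear Argonaute protein, at 149, and the germ granule helicase gene glh-2 at 130, with the summit 5 bp from glh-2. The mutator gene mut-15 shared a peak of 102 with the fibrillarin gene fib-1. The spindle, centrosome and kinetochore list, which also holds the cohesin genes smc-3 and scc-1, had 19 of 52 (36.5%, 23.6 to 51), led by klp-18, by klp-16 at 195 and by tbb-1 at 192. The genes klp-15 and klp-16 are near-identical copies and reads can be split between them. Cell cycle and replication genes did so in 12 of 37 cases (32.4%, 18 to 49.8), led by top-2 with npp-3 at 188, by the DNA ligase gene lig-1 at 135, by the replication factor gene rfc-4 with eef-1A.1 at 134 and by cdc-6 at 117.

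Chaperone genes flanked a peak in 13 of 32 cases (40.6%, 23.7 to 59.4). Besides hsp-60 and cct-8 these were led by hsp-110, which shared a peak of 179 with the proteasome gene rpn-3, and by cct-7 at 119. Nuclear pore and transport genes did so in 9 of 27 cases (33.3%, 16.5 to 54): ran-1, for the transport GTPase, had 98.4, and the importin genes imb-1 and ima-1 had 93.1 and 89.8. The list of mitochondrial ribosome and respiratory chain genes, which also takes in mitochondrial chaperones, had 19 of 65 (29.2%, 18.6 to 41.8). Of these, hsp-60 and hsp-6 are mitochondrial chaperone genes and are counted among the chaperones too. Others were the complex I genes ndub-8 at 147 and ndua-2 at 109 and the succinate dehydrogenase gene mev-1 at 94.5. The list of nucleolar and rRNA processing genes had 7 of 22 (31.8%, 13.9 to 54.9), led by the RNA polymerase I gene rpoa-2 at 132, then nol-58 and fib-1 at 102 each and nol-10 at 100. It also counts mtr-4, for an exosome helicase, and wdr-5.3, a WDR5-like gene that its symbol placed there.

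Some pairs joined genes of the same machinery. The translocon genes trap-3 and sec-61.B shared a peak of 177 with ranks of 202 in replicate 3 and 145 in replicate 4. The splicing factor genes rsp-1 and rsp-2 shared one of 92.0, snu-13 and rsp-7 one of 76.7, and snr-3 and rsp-5 one of 46.5. Splicing genes flanked a peak in 13 of 50 cases (26.0%, 14.6 to 40.3) and were led by prp-19 at 164. Genes of the endoplasmic reticulum and coat vesicles did so in 7 of 27 (25.9%, 11.1 to 46.3), among them trap-3 and sec-61.B.

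For the remaining lists the interval reached down to the 14.7% of all pair genes or below. They were RNA polymerase II and Mediator (5 of 22, 22.7%, led by rpb-12 at 100), translation factors and tRNA synthetases (7 of 31, 22.6%, led by eef-1A.1) and the proteasome and ubiquitin (7 of 40, 17.5%, led by rpn-3 and ubc-6). Histone genes flanked a peak in 8 of 63 cases (12.7%, 5.65 to 23.5), in 4 pairs of histone genes: his-68 and his-67, his-59 and his-60 at 177, his-63 and his-64 at 85.7, and his-61 and his-62 at 71.5. The summit window of his-63 and his-64 held a 20-letter word with 13 copies in the nuclear genome, and those of the other histone pairs held none with more than 1 copy. The lists of nucleolar, splicing and endoplasmic reticulum genes also had intervals that reach below 14.7%.

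The lists of sperm genes, cuticle collagens, nuclear hormone receptors, neuronal genes and muscle genes had 1 to 3 genes each beside a peak, and all 5 intervals include the 14.7% of all pair genes. There were 3 of 30 sperm genes (10%, 2.11 to 26.5), namely spe-48, gskl-2 and spe-39, and the last shared its peak of 79.6 with the maternal RNA-binding gene spn-4. Of 29 cuticle collagen genes 3 did so (10.3%, 2.19 to 27.4): col-71, col-38 and bli-6. Their peaks had signals of 61.3, 52.2 and 49.9, and the partners of col-38 and bli-6 were rpl-5 and the splicing gene hrpf-2. Of 30 nuclear hormone receptor genes 2 did so (6.67%, 0.818 to 22.1), nhr-47 with the chaperone gene dnj-19 and nhr-142. Of 26 neuronal genes only the synaptotagmin gene snt-2 did (3.85%, 0.0973 to 19.6), beside rps-29, and of 6 muscle genes only mlc-5 (16.7%, 0.421 to 64.1).

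Many flanking genes had another gene close behind them. Of the 649 flanking genes, 222 (34.2%, 30.6 to 38) were followed within 500 bp by a coding gene on the same strand, as in operons. This compares with 35.4% of genes beside single-gene promoter peaks, 22.1% of genes in all divergent pairs and 18% of all coding genes. This count was chosen after seeing the data.

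At the summits the DNA was richer in G and C than on either side. The GC content of the 101 bp windows was 44.1% ± 8.7 (SD, n = 338 peaks), beside 41.1% ± 8.9 at 532 single-gene promoter peaks and 40.1% ± 8.6 at 1585 candidates that were neither promoter peak nor beside a small RNA gene. In equally long windows 300 bp to the left and right of the divergent summits it was 37% and 37.7%. The median distance to the 5' end was 246 bp for the minus-strand gene on the left and 210 bp for the plus-strand gene on the right. Many side windows therefore lay past a 5' end, inside a flanking gene, and are no purely intergenic background. At the midpoints of all 2186 divergent pairs it was 34.3% ± 8.9. The SD is the spread between windows and is of similar size to these differences.

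The 3 GC-rich sequences printed first in the list of short sequences, counted on both strands, came from an earlier count over all summits of these data. At least 1 was present in 117 of 338 windows (34.6%, 29.6 to 40), beside 35.7% at single-gene promoter peaks, 14.5% at the 1585 other candidates and 9.42% at the midpoints of all divergent pairs. In the side windows it was 3.55% to the left and 3.85% to the right. The 3 sequences were picked from summits of these data and GC content was not matched, so these differences are a description only. GGCGCA was in 17.8% of the windows against 4.21% of pair midpoints, ACGCGC in 15.7% against 4.25%, and GCGCCA in 15.4% against 3.02%. Both GGCGCA and GCGCCA were in 27 windows, in 22 of them overlapping as TGGCGCA, so their counts are not separate. With the peaks cut into 4 groups by pooled signal, strongest first, the share with any of the 3 was 37.6%, 38.8%, 34.5% and 27.4%, with intervals that overlap.

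**Figure D5:**
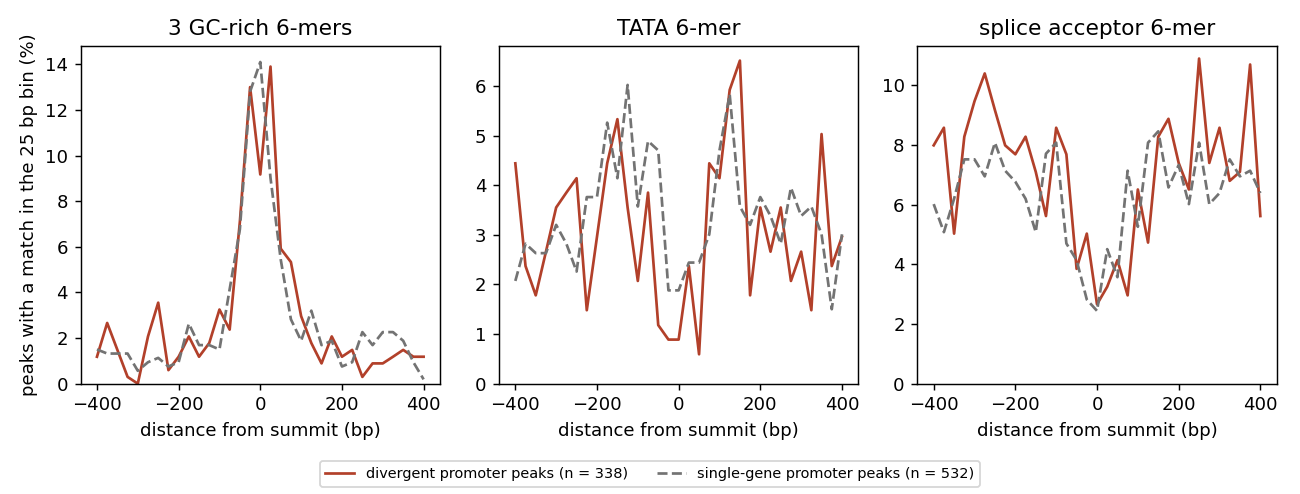
Share of peaks with a match that starts in a 25 bp bin (vertical, percent) by distance from the summit (horizontal, bp), in red for 338 divergent promoter peaks and as a dashed grey line for 532 single-gene promoter peaks. The GC-rich sequences reach 13.9% of divergent peaks in the bin at 25 bp and are at 1.18% at 200 bp to either side, while the TATA-type and splice acceptor sequences dip at the summit to 0.888% and 2.66% of divergent peaks.

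The plot of matches around the summit shows a similar course in divergent and single-gene promoter peaks. TATAAA was in 4.44% of divergent windows (2.50 to 7.21), beside 8.65% at single-gene promoter peaks and 14.3% at the midpoints of all divergent pairs. TTTCAG, the letters of many splice acceptor sites, was in 13.0% (9.62 to 17.1), beside 17.1% at pair midpoints. In the side windows, many of which lay inside a flanking gene, it was in 32.5% and 29.0%. The E2F-type sequence GCGCGAA was in 6.51% (4.12 to 9.69), beside 6.20% at single-gene promoter peaks and 1.33% at pair midpoints. It was found together with ACGCGC in 6 windows, in 3 of them overlapping as ACGCGCGAA. The GC box GGGCGG was in 7.10% (4.60 to 10.4), beside 3.20% and 3.11%, and 16 of its 24 windows had none of the 3 GC-rich sequences.

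The other sequences searched are given beside their share at pair midpoints. Those midpoints had a mean GC content of 34.3%, against 44.1% at the divergent summits. GC content was not matched, and its part in the differences from them was not tested. The CHR sequence TTTGAA, known from DREAM targets, was in 22.8% of divergent windows, against 30.3% of pair midpoints, and its variant TTCGAA in 9.76% against 7.59%. TTTGAA was also in 22.3% of the 1585 other candidates and in 23.1% and 21.3% of the left and right side windows. For TTCGAA these shares were 6.81%, 9.47% and 5.92%. The E2F-type GCGGGAA was in 2.96% against 1.37%, the E-box CACGTG in 2.37% against 1.83%, and GAGAGA in 10.4% against 6.91%. The GATA sequence AGATAA was in 3.55% against 8.14%, and the Ets-type CCGGAA in 1.78% against 3.57%. Single-gene promoter peaks held TTTGAA in 27.6%, TTCGAA in 7.89%, GCGGGAA in 4.14% and CACGTG in 3.76%. They held GAGAGA in 9.02%, AGATAA in 4.89% and CCGGAA in 1.13%. Windows without a match say nothing of the factors named.

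The last 3 sequences were chosen after seeing the divergent windows themselves, so their shares there are a description only. ACCGTA and GAGACC were the 6-letter words with the largest and second largest gap between these windows and the side windows. That gap therefore follows from the choice. ATACACT was read in windows beside ribosomal protein genes. ACCGTA was in 20.7% (16.5 to 25.4), beside 13.3% at single-gene promoter peaks, 4.57% at pair midpoints and 2.66% in each side window. It was in 11 of the 25 windows beside a ribosomal protein gene (44.0%, 24.4 to 65.1), and in 59 of the other 313 (18.8%, 14.7 to 23.6). GAGACC was in 19.5%, beside 16.4% at single-gene promoter peaks and 4.62% at pair midpoints. ATACACT was in 8 divergent windows (2.37%), beside 0.376% at single-gene promoter peaks and 1.56% at pair midpoints. Of the 8, 3 were beside ribosomal protein genes, those of rpl-20, rpl-15 and rps-1 printed above.

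Between gene lists the sequences at the summits differed within wide intervals. Any of the 3 GC-rich sequences was in 10 of 21 windows beside spindle genes (47.6%, 25.7 to 70.2), in 6 of 12 beside meiotic genes (50%, 21.1 to 78.9) and in 7 of 14 beside germ granule and small RNA genes (50%, 23.0 to 77.0). It was in 8 of 22 beside chromatin regulators (36.4%, 17.2 to 59.3), in 7 of 25 beside ribosomal protein genes (28.0%, 12.1 to 49.4) and in 1 of 12 beside cell cycle and replication genes (8.33%, 0.211 to 38.5). ACCGTA was in 8 of 21 windows beside spindle genes (38.1%), in 5 of 12 beside meiotic genes (41.7%) and in 5 of 12 beside cell cycle genes (41.7%). It was in 1 of 20 beside mitochondrial genes (5.00%, 0.127 to 24.9) and in 2 of 22 beside chromatin regulators (9.09%). Beside germ granule and small RNA genes it was in 2 of 14 (14.3%). No difference between lists was tested.

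Repeated DNA was present under some summits. A 20-letter word with 5 or more copies in the nuclear genome was in 53 of 338 windows (15.7%, 12 to 20), beside 24.0% of all 3000 candidates and 14.8% of single-gene promoter peaks. Several named peaks were among the 53, by copies of the most frequent word: ubc-6 (105), atad-3 with nrde-2 (84), nol-58 (26), pos-1 (18), wbp-4 (11) and rga-3 (9). Every 20-letter word occurred once in 153 divergent windows (45.3%, 39.9 to 50.7), beside 47.8% of all 3000 candidates and 51.5% of single-gene promoter peaks. Without the 53 windows, 35.4% of the remaining 285 peaks held at least 1 of the 3 GC-rich sequences and 23 flanking genes were ribosomal protein genes. How reads that map to several places were handled is not given in the sources used here.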

How the data were processed

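ChIP-seq peak lists on ce11 were analysed for 1 group of 2 samples. Per the labels' README texts, the authors deposited candidate lists for replicate 3, replicate 4 and both pooled, made against 1 shared control, and an optimal list made from them with IDR. The ce10 lists were not used. Each peak has a deposited signal, whose scale the authors do not state, a deposited −log10 q-value that is tied among top peaks and was not used, and a deposited summit offset from its start. The signal was used only to rank and filter within 1 list. The peak caller, the aligner and their versions were not given in the sources used here, and the depth is unknown.

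The 30000 pooled rows, 29979 of them nuclear, were set against the Ensembl release 115 annotation of WBcel235, the same assembly. A replicate's summit was the strongest within 200 bp of a peak's summit. Motifs were searched on both strands within 50 bp of the summit, in windows centred 300 bp to each side and at the midpoints of adjacent divergent coding pairs at most 1500 bp apart. Shares carry exact (Clopper-Pearson) 95% intervals. The rule and matching were tested on simulated data. Python 3.11.15, pandas 2.3.3, numpy 2.4.6, scipy 1.17.1 and matplotlib 3.10.9 were used.

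The peaks and gene lists were chosen with earlier results of these data known. The pattern for ribosomal protein genes was widened to include rpl-7A, and ACCGTA with GAGACC and with ATACACT, the same-strand neighbours and the 20-letter copies were chosen, after seeing the data. Named were the 12 strongest peaks, the strongest of each chromosome, up to 4 genes of each list and up to 12 pairs with both genes on lists by signal, the extremes of spacing and distance, peaks missing from a replicate, pairs with 2 peaks and those at the thresholds. Sequence is printed for up to 10 of the 12 strongest peaks and 6 with several motifs, none from chromosome I. Other names were chosen after their values were seen. No difference was tested, since the only group holds 2 samples and the rule used both.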

Additional observations from a re-analysis of the deposited data

How the results depend on the processing

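Of 62 recomputed values, 45 kept within the spread or 1.5 times the main count. The number of divergent promoter peaks was 177 in the optimal list and 197 in the top 1500, and the ribosomal protein genes beside them were 16 in each. The share of divergent pairs holding a peak was 7.87% in the optimal list and 8.69% in the top 1500. Fewer candidates entered these settings by construction. In the top 1500, 89.8% were in the optimal list. The share with a top candidate of both replicates was 92.7% in the optimal list, 89.3% in the top 1500 and 95.6% against whole candidate lists. Mean GC content was 45.7% in the optimal list, 46.1% in the top 1500 and 39.1% in windows of 100 bp to each side. These wider windows held any of the 3 GC-rich sequences in 44.4%. With both 5' ends within 500 bp the median spacing was 429 bp, as that limit fixes.

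With 1 replicate list in place of the pooled one, the peaks numbered 279 to 330, the median spacing was 530 to 539 bp, the share of pairs held was 12.1% to 14.3%, the GC-rich share 31.2% to 34.8%, the mean GC content 42.5% to 43.7% and the ribosomal protein genes 21 to 24. The lower value of each share and count came without replicate 3, and the cause was not tested. No paired analysis was possible because there is 1 group, whose 2 replicates carry different numbers. The unknown read depth limits what weak peaks can show.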
